A study of Mus musculus with 6 samples.

Results

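Wnt ligands, their Frizzled, Lrp and Ror receptors, the secreted proteins that block them, and the beta-catenin machinery inside the cell were followed in As4.1 cells on Affymetrix mouse arrays. Members were defined by gene symbol, as the probe sets annotated to a single gene named Wnt, Fzd or Sfrp with a number, Dkk1 to Dkk4, Lrp5, Lrp6, Wif1, Frzb, Axin1, Axin2, Ctnnb1, Lef1, Tcf7, Tcf7l1, Tcf7l2, Ror1 or Ror2. The set was chosen with earlier results of these data known. This definition gave 99 of the 45037 probe sets that are not array controls, for 49 genes, namely 19 ligands (32 probe sets), 14 receptors (34), 10 secreted inhibitors (18) and 6 intracellular genes (15). Tcf7 is not analysed here. As4.1 is a mouse line grown from a kidney tumour of a transgenic mouse, in which the renin promoter drove a viral oncogene, and it is used as a model of renin-producing juxtaglomerular cells. Of the 6 arrays, 2 came from cultures given vehicle, 2 from cultures given hydrogen peroxide, an oxidant, and 2 from cultures given interleukin, whose kind is not stated. The labels give no dose and no duration, and the 2 arrays of each group are separate cultures per the series description.

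Wnt proteins are secreted lipid-modified ligands that bind Frizzled receptors together with the co-receptors Lrp5 and Lrp6. Binding halts the destruction of beta-catenin by a complex built on Axin, and beta-catenin then acts with the DNA-binding proteins of the Tcf and Lef family. The Sfrp proteins, Frzb and Wif1 bind Wnt ligands outside the cell, and the Dkk proteins other than the divergent Dkk3 bind Lrp5 and Lrp6. Ror1 and Ror2 are receptors of branches that do not use beta-catenin. In the kidney the pathway is known for its part in forming nephrons and stroma during development and in injury and fibrosis of the adult organ.

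Signal is the deposited MAS5 value of a probe set, a brightness on a linear scale that was scaled to the same trimmed mean of 1500.01 on every array. The median signal of an array was 192.2 to 232.3. A probe set was tested where its mean log2 signal over the 6 arrays lay in the upper part of all probe sets, which corresponds to a geometric mean signal of at least 193.7. Called means an adjusted p under 0.05 in limma over the 22519 tested probe sets, with 2 arrays per group, so the number of arrays limits the precision. The 3' to 5' signal ratios of control transcripts, which rise with RNA degradation or incomplete labelling, were higher on all treated arrays than on both vehicle arrays for beta-actin, Tfrc and Pcx, and differed little for Gapdh. For beta-actin they were 1.22 and 1.26 with vehicle, 1.35 and 1.32 with hydrogen peroxide, and 1.46 and 1.55 with interleukin. For Tfrc they were 1.85 and 2.14, 3.54 and 2.296, and 3.05 and 3.95. For Pcx they were 1.655 and 1.59, 2.89 and 2.03, and 2.304 and 2.46, and for Gapdh 0.825 and 0.836, 0.844 and 0.836, and 0.847 and 0.873, and their part in the results below was not tested. The summed signal of 7 leukocyte markers was 1267 to 1349 with vehicle, 1813 to 1814 with hydrogen peroxide and 1920.2 to 2218 with interleukin. That of 8 endothelial markers was 14416 to 17040.2, 11459.5 to 12430.3 and 9125 to 12886, mostly from Kdr, with the defining marker Pecam1 at 12 to 48.7. That of 8 epithelial markers was 1329.6 to 1425, 1099.5 to 1217 and 1174 to 1508. Only 2 markers of each of these 3 lists were tested. Of the leukocyte markers 1 was called higher with each treatment, and of the endothelial markers 1 was called lower with interleukin. The other tested markers of these lists were not called against vehicle. Of 12 markers of the renin cell, 9 were on the array and 6 were tested. Their summed signal was 20963 to 21744 with vehicle, 20369 to 20863 with hydrogen peroxide and 28659 to 35063 with interleukin. With interleukin Pdgfrb, Acta2 and Tagln were called higher and Foxd1 lower, and with hydrogen peroxide Kcnj8 and Foxd1 were called lower. Gja5 lay at 5.2 to 9.1, and renin is not analysed here. The part of these marker differences in the results was not tested.

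Of the 99 member probe sets, 54 from 30 genes were bright enough to be tested, and 22 from 14 genes were called in at least 1 comparison. The 19 genes with no tested probe set were Wnt1, Wnt2, Wnt2b, Wnt3, Wnt3a, Wnt8a, Wnt8b, Wnt9b, Wnt10a, Wnt10b, Wnt11, Wnt16, Fzd6, Fzd9, Dkk1, Dkk4, Sfrp5, Wif1 and Lef1. Single arrays of the 45 untested probe sets read between 1.8 and 283.8. In RefSeq 4 pairs of members are next to each other among protein-coding genes, namely Wnt6 with Wnt10a, Wnt3a with Wnt9a, Wnt9b with Wnt3 and Wnt10b with Wnt1. Only Wnt6 and Wnt9a of these 8 ligands had a tested probe set.

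The first question was what interleukin did to these genes. Most changed receptors fell, while inhibitors of the Sfrp type moved in both directions. Of 54 tested member probe sets 20 were called (37.0%), 7 higher and 13 lower, beside 16.1% of all tested probe sets, 7.58% higher and 8.52% lower. By gene, Wnt7b, Fzd7, Sfrp1 and Sfrp4 rose, and Wnt5b, Fzd1, Fzd2, Fzd3, Fzd10, Lrp6, Frzb and Ctnnb1 fell, each in at least 1 probe set. The median log2 change of the tested members was -0.02, equal to that of all tested probe sets at this precision. It was -0.36 over 21 receptor probe sets and 0.57 over 12 inhibitor probe sets.

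The oxidant, hydrogen peroxide, gave fewer calls against vehicle, namely 6 called member probe sets of 54 (11.1%), all of them lower, beside 5.69% of all tested probe sets, 3.05% higher and 2.65% lower. They belonged to Fzd1, Fzd2, Lrp6, Sfrp2 and Sfrp4. None of the 54 was called higher by limma, with 3 higher and 18 lower at an unadjusted p under 0.05, and without a trend of variance on signal none was called in either direction, with 2 higher and 15 lower at an unadjusted p under 0.05. For counts at an unadjusted p, here and below, no share over all tested probe sets is given. They therefore cannot be read as more or fewer than over the whole array. The median log2 change was -0.20 over the tested members and 0.02 over all tested probe sets. After centring each array on its 75th percentile, 602 probe sets were called higher and 879 lower over the whole array, against 686 and 596 as deposited, and 9 members lower.

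Interleukin against hydrogen peroxide, the direct test of a difference between the treatments, called 11 member probe sets of 54 (20.4%), 9 higher and 2 lower with interleukin. Without a variance trend 12 members were called with interleukin against vehicle and 6 between the treatments. The calls lost were those of Fzd1 1437284_at, Fzd10, Frzb 1416658_at, 4 Sfrp1 probe sets and Sfrp4 against vehicle, and those of Ctnnb1, Dkk3, Frzb, Sfrp1 1448395_at and Sfrp2 between the treatments. Over all tested probe sets the direct comparison called 8.82%, 4.95% higher and 3.87% lower. The higher ones belonged to Wnt7b, Fzd7, Dkk3, Sfrp1, Sfrp2 and Sfrp4, and the lower ones to Frzb and Ctnnb1. Of 12 tested inhibitor probe sets 7 were higher and 1 lower, of 21 receptor probe sets 1 was higher. The median log2 difference was 0.59 over the inhibitor probe sets and -0.05 over all tested probe sets. Both comparisons with vehicle use the same 2 vehicle arrays, so their values for a member are given side by side and not correlated.

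**Figure D1:**
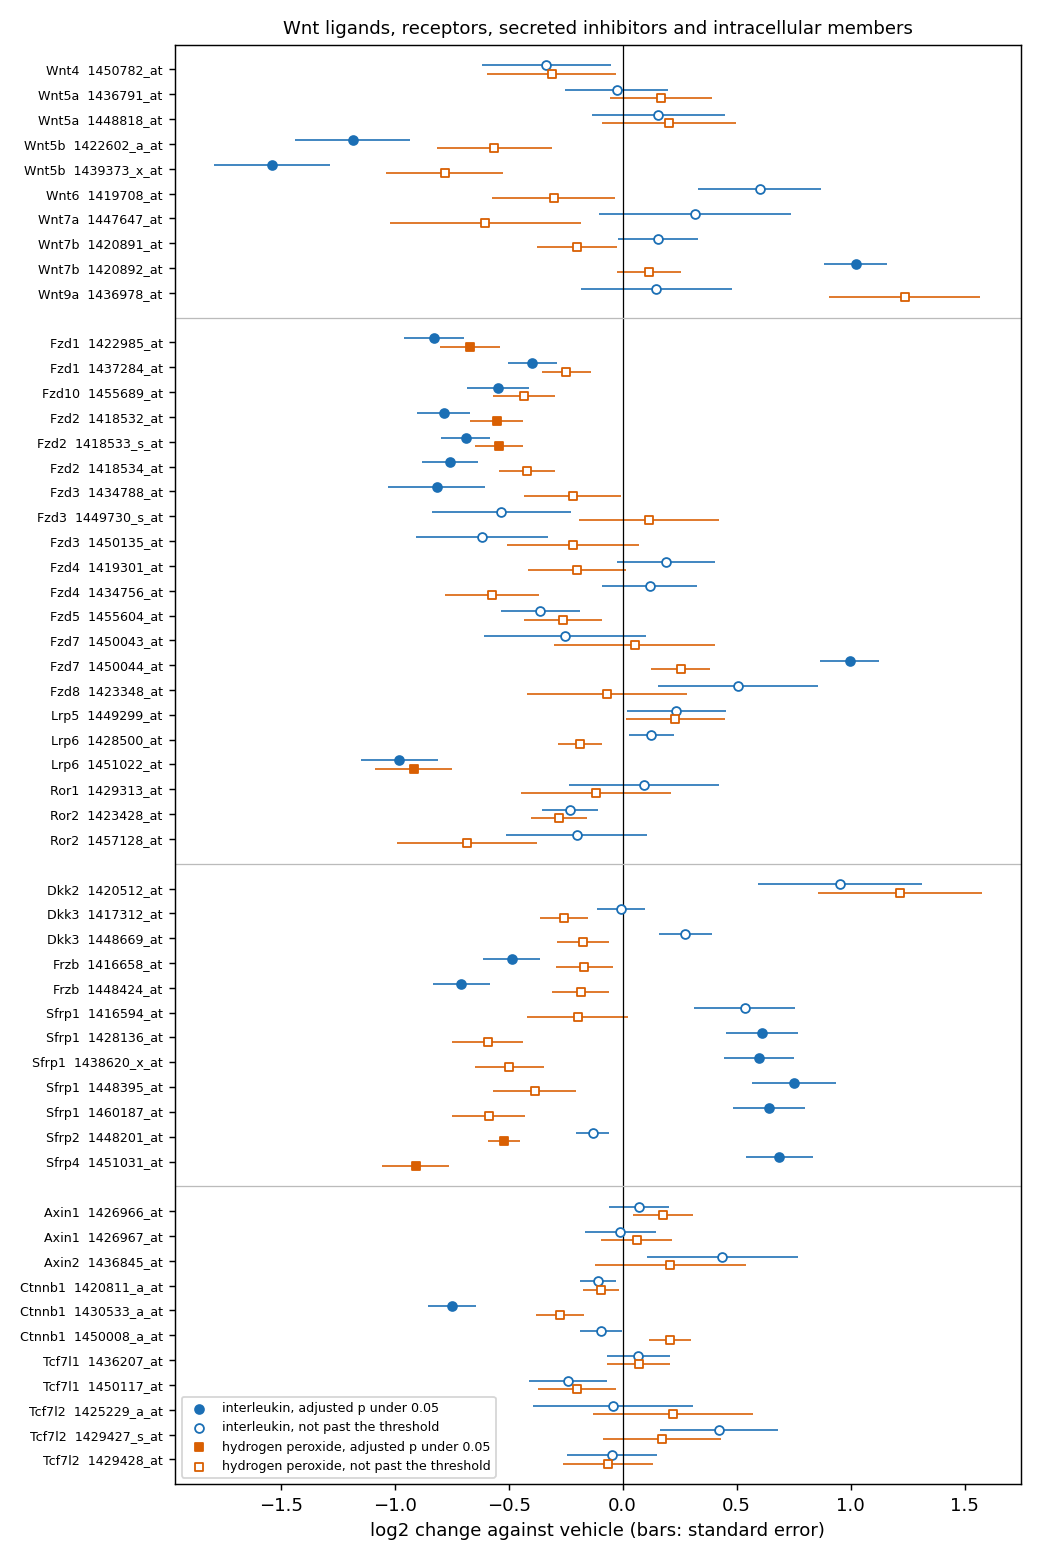
Log2 change against vehicle, with its standard error, of the 54 tested probe sets of Wnt ligands, receptors, secreted inhibitors and intracellular members (from top to bottom), for interleukin (circles) and hydrogen peroxide (squares), each from 2 arrays per group; filled symbols have an adjusted p under 0.05. Filled receptor symbols lie below 0 except Fzd7, and the Sfrp1 and Sfrp4 circles lie above 0 while their squares lie below it.

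Among the ligands, Wnt7b rose and Wnt5b fell under interleukin. Of 10 tested ligand probe sets, 1 was higher and 2 were lower with interleukin, beside 7.58% higher and 8.52% lower over all tested probe sets. Both lower ones were of Wnt5b. Wnt7b, a ligand that acts through beta-catenin in many epithelia, had signals of 1779.8 and 1796 with vehicle, 2066 and 1816 with hydrogen peroxide, and 3329 and 3959 with interleukin (probe set 1420892_at). Both interleukin arrays lay above the other 4, and the vehicle and hydrogen peroxide arrays lay close together. Its log2 change was 1.02 with an SE of 0.14 (2 arrays per group, adjusted p = 0.000841) against vehicle, 0.12 (adjusted p = 0.677) with hydrogen peroxide, and 0.91 with an SE of 0.14 (2 arrays per group, adjusted p = 0.00266) between the treatments. The other Wnt7b probe set, 1420891_at, was not called, at 912 and 982 with vehicle, 763 and 891 with hydrogen peroxide, and 998 and 1112 with interleukin, with a log2 change of 0.15 (adjusted p = 0.596) under interleukin. The rise of Wnt7b therefore rests on 1 of its 2 probe sets.

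Wnt5b, a ligand known mainly for signalling without beta-catenin, fell in both tested probe sets under interleukin. On 1439373_x_at the signals were 982 and 890.2 with vehicle, 649 and 457 with hydrogen peroxide, and 379 and 274 with interleukin. The log2 change was -1.54 with an SE of 0.26 (2 arrays per group, adjusted p = 0.00277) with interleukin and -0.78 (adjusted p = 0.103) with hydrogen peroxide. On 1422602_a_at they were 718 and 717 with vehicle, 438 and 539 with hydrogen peroxide, and 373 and 267 with interleukin, and the fall under interleukin was 1.18 with an SE of 0.25 (2 arrays per group, adjusted p = 0.0102) on the log2 scale. In both probe sets the hydrogen peroxide arrays lay between the vehicle and the interleukin arrays, without overlap, but the difference between the treatments was not called, at log2 -0.76 with adjusted p = 0.0987 and -0.62 with adjusted p = 0.162. The second probe set was not called without vehicle array 1 (adjusted p = 0.0763) or vehicle array 2 (0.0767).

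Wnt9a, a ligand of joint and liver development, read 234 and 209 with vehicle, 527 and 516 with hydrogen peroxide, and 322 and 187 with interleukin on its tested probe set. Both hydrogen peroxide arrays lay above the other 4, with a log2 change of 1.24 with an SE of 0.33 (2 arrays per group, adjusted p = 0.0559), which missed the threshold. Against vehicle it was called with only the 4 arrays of these groups (adjusted p = 0.0265) and without interleukin array 1 (0.0337) or 2 (0.0273). Wnt6, an epithelial ligand, read 318 and 481 with vehicle, 319 and 315 with hydrogen peroxide, and 596 and 591 with interleukin, and its log2 difference between interleukin and hydrogen peroxide was 0.90 (adjusted p = 0.0644). The other tested ligands were Wnt4, Wnt5a, with 2 tested probe sets, and Wnt7a. Their log2 changes lay between -0.34 and 0.32 with interleukin and between -0.60 and 0.20 with hydrogen peroxide, and none was called. Wnt5a, the relative of Wnt5b, read 528 and 629.6 with vehicle, 590.0 and 712 with hydrogen peroxide, and 636 and 504 with interleukin on 1436791_at, so its groups overlapped where those of Wnt5b did not.

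**Figure D2:**
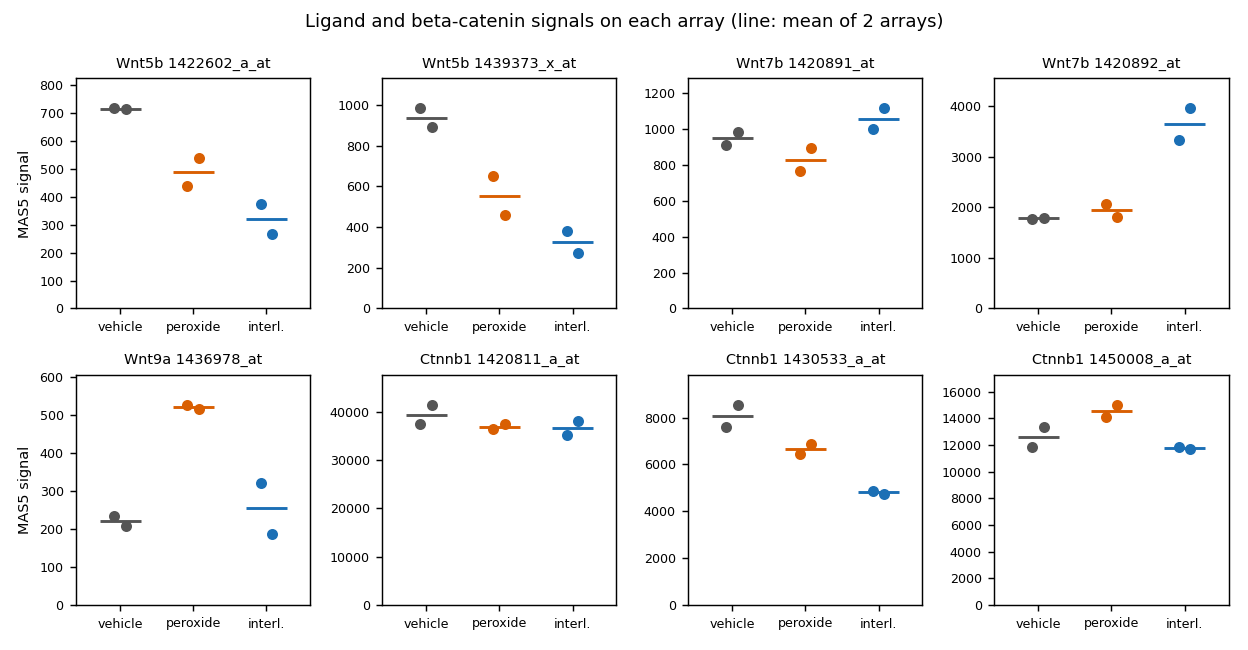
MAS5 signal on each of the 6 arrays (points) and the mean of 2 arrays (line) for the tested probe sets of Wnt5b, Wnt7b, Wnt9a and Ctnnb1, on linear axes that start at 0. Wnt5b is highest with vehicle and lowest with interleukin in both probe sets, and Wnt7b 1420892_at is highest with interleukin.

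For the promoters of members that lead each role, bases upstream of the annotated start are shown because members of 1 family moved in different directions. The sequences are the 250 bases before the start from RefSeq promoter windows (build GRCm38.p6), 5′ to 3′, and capitals mark motif matches. Windows were found for 34 of the 49 members, 7 of them called in some comparison. Of the 14 called genes, Wnt7b, Fzd2, Fzd3, Fzd10, Lrp6, Dkk3, Sfrp1 and Sfrp4 are not shown. Both strands were searched for the TCF/LEF core TCAAAG, the AP-1 motif TGANTCA, the NF-kappaB motif and the p53 motif, and no matches overlapped in the windows shown.
Wnt5b (chr6:119544348-119544597, minus strand): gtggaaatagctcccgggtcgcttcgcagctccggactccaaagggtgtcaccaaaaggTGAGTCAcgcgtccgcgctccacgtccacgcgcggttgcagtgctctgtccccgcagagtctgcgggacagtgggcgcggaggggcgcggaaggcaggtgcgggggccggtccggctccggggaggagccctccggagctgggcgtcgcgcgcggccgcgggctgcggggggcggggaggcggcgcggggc
Fzd7 (chr1:59481897-59482146, plus strand): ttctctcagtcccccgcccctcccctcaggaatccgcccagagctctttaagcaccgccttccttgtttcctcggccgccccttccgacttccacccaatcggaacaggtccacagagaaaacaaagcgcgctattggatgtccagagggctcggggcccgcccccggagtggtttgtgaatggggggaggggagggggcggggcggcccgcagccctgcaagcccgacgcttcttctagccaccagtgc
Fzd1 (chr5:4758217-4758466, minus strand): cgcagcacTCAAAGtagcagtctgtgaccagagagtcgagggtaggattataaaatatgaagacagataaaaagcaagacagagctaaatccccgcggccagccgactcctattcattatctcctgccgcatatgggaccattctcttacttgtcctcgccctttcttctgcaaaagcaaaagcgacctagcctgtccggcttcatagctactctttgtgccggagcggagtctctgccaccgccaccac
Sfrp2 (chr3:83766071-83766320, plus strand): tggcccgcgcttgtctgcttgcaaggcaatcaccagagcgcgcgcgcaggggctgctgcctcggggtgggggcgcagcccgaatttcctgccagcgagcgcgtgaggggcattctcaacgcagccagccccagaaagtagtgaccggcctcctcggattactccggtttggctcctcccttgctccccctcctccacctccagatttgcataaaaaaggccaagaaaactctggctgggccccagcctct
Frzb (chr2:80447397-80447646, minus strand): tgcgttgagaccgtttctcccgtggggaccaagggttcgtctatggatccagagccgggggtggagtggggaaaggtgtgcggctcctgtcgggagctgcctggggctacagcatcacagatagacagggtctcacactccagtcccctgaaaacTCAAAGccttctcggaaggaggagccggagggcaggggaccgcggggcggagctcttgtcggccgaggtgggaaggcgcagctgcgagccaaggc
Ctnnb1 (chr9:120933150-120933399, plus strand): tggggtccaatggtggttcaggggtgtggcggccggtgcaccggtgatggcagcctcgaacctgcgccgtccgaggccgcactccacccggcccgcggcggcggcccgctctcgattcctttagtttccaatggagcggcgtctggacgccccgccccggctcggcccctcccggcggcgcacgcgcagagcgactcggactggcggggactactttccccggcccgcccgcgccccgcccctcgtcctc

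Wnt5b, the first of 3 windows of this gene, held an AP-1 match that begins 191 bases before the start. The last of its 3 windows held a TCF/LEF core that begins 71 bases before the start, and its other window held no match. Fzd1 and Frzb, which fell under interleukin, each held a TCF/LEF core, beginning 242 and 95 bases before the start, whereas the window of Fzd10, which also fell, held no match. The windows of Fzd7, which rose, Sfrp2, and both of Ctnnb1 held none of these motifs. Fzd1 and Frzb were added to the leading members of each role after their values had been seen, as relatives of Fzd7 and Sfrp2. Over all 42 windows of the members the TCF/LEF core was in 16.7%, AP-1 in 4.76%, the NF-kappaB motif in 9.52% and the p53 motif in 2.38%. Over all 32851 windows of the same length the shares were 13.8%, 6.75%, 7.25% and 7.13%. The median GC content was 67.4% in the windows of the members and 52.4% in all windows.

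Frizzled receptors fell in most called cases. Of 15 tested Frizzled probe sets, 7 were lower and 1 was higher with interleukin, and 3 were lower with hydrogen peroxide. Over all 21 receptor probe sets, Lrp and Ror included, 8 were lower and 1 higher with interleukin and 4 lower with hydrogen peroxide. Beside these stand 8.52% lower and 7.58% higher with interleukin over all tested probe sets, and 2.65% lower with hydrogen peroxide. Fzd2 was the member whose 3 probe sets all fell under interleukin, so the receptor counts partly repeat 1 gene. On 1418532_at the signals were 11771 and 13296 with vehicle, 8089 and 9004 with hydrogen peroxide, and 6634 and 7942 with interleukin, on 1418533_s_at 10145 and 10294 with vehicle, 7448 and 6620.4 with hydrogen peroxide, and 5967 and 6744 with interleukin, and on 1418534_at 4416 and 5235 with vehicle, 3508 and 3692 with hydrogen peroxide, and 2909.7 and 2778 with interleukin. In each probe set the vehicle arrays lay above all treated arrays, without overlap. Fzd2 fell under interleukin by 0.79 with an SE of 0.12 (2 arrays per group, adjusted p = 0.00143) on the log2 scale in the first, 0.69 with an SE of 0.11 (2 arrays per group, adjusted p = 0.00181) in the second and 0.76 with an SE of 0.12 (2 arrays per group, adjusted p = 0.00241) in the third. With hydrogen peroxide the log2 changes were -0.55 (adjusted p = 0.0229), -0.54 (adjusted p = 0.0171) and -0.42 (adjusted p = 0.0752), so that 2 of 3 were called. The treatments did not differ at the threshold, at log2 -0.23 with adjusted p = 0.257, -0.15 with adjusted p = 0.452 and -0.34 with adjusted p = 0.121. Under hydrogen peroxide the first was not called without vehicle array 1 (adjusted p = 0.0805), vehicle array 2 (0.207), hydrogen peroxide array 1 (0.148) or array 2 (0.0507). The second was not called without vehicle array 1 (0.113), vehicle array 2 (0.132) or hydrogen peroxide array 2 (0.0978), while the third was called after centring on the 75th percentile (0.0450).

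Fzd1, a close relative of Fzd2 and Fzd7, also fell. On 1422985_at the signals were 2748 and 2839 with vehicle, 1667 and 1850.4 with hydrogen peroxide, and 1546 and 1602 with interleukin, so both treated groups lay below vehicle without overlap. The log2 change was -0.83 with an SE of 0.13 (2 arrays per group, adjusted p = 0.00218) with interleukin and -0.67 with an SE of 0.13 (2 arrays per group, adjusted p = 0.0174) with hydrogen peroxide. On 1437284_at they were 12771 and 12906 with vehicle, 11495 and 10186 with hydrogen peroxide, and 8939 and 10670.4 with interleukin, and the fall under interleukin was 0.40 with an SE of 0.11 (2 arrays per group, adjusted p = 0.0328) on the log2 scale, beside -0.25 (adjusted p = 0.211) under hydrogen peroxide. Both probe sets of Fzd1 thus fell under interleukin. Under hydrogen peroxide the first probe set was not called without vehicle array 1 (adjusted p = 0.113), vehicle array 2 (0.144) or hydrogen peroxide array 1 (0.118). Under interleukin the second was not called without vehicle array 1 (0.147), vehicle array 2 (0.161) or interleukin array 1 (0.153), nor with no filter on signal (0.0655) or without a variance trend (0.142).

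Fzd10 and Fzd3 fell under interleukin with less support. Fzd10, a receptor of the same group as Fzd4 and Fzd9, read 4466 and 4304 with vehicle, 3568 and 2963 with hydrogen peroxide, and 2759 and 3266 with interleukin on its tested probe set, with a log2 change of -0.55 with an SE of 0.14 (2 arrays per group, adjusted p = 0.0211) under interleukin and -0.43 (adjusted p = 0.0919) under hydrogen peroxide. Every treated array lay below both vehicle arrays. It was not called under interleukin without vehicle array 1 (adjusted p = 0.136), vehicle array 2 (0.101) or interleukin array 1 (0.103), nor without a variance trend (0.0859). Fzd3, a receptor needed for axon guidance and planar polarity, read 741 and 769 with vehicle, 620.0 and 678 with hydrogen peroxide, and 378 and 487 with interleukin on 1434788_at, a log2 change of -0.81 with an SE of 0.21 (2 arrays per group, adjusted p = 0.027) under interleukin. Its 2 other tested probe sets were not called, at -0.53 (adjusted p = 0.277) and -0.62 (adjusted p = 0.183) on the log2 scale. The call on the first was lost without vehicle array 1 (adjusted p = 0.13), vehicle array 2 (0.154) or interleukin array 1 (0.113), and with no filter on signal (0.0611).

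Fzd7 was the Frizzled receptor that rose. On 1450044_at it read 1717 and 1896 with vehicle, 2229 and 2082 with hydrogen peroxide, and 3451 and 3754 with interleukin. Both interleukin arrays lay above the other 4, and both hydrogen peroxide arrays lay above both vehicle arrays by less. The log2 change was 0.996 with an SE of 0.13 with interleukin (2 arrays per group, adjusted p = 0.000625), 0.26 (adjusted p = 0.277) with hydrogen peroxide, and 0.74 with an SE of 0.13 (2 arrays per group, adjusted p = 0.00548) between the treatments. Without hydrogen peroxide array 2 the difference between the treatments was not called (adjusted p = 0.0526). The other tested Fzd7 probe set, 1450043_at, was dim, at 219 and 245 with vehicle, 207 and 279 with hydrogen peroxide, and 199.9 and 189 with interleukin, and did not follow, at log2 -0.25 with adjusted p = 0.68 with interleukin. Fzd4, the receptor of norrin in retinal vessels, read 601 and 725 with vehicle, 447 and 440.3 with hydrogen peroxide, and 694 and 739.7 with interleukin on 1434756_at, with log2 differences of -0.57 (adjusted p = 0.134) for hydrogen peroxide against vehicle and 0.69 (adjusted p = 0.0651) between the treatments. Fzd5, Fzd8 and the other tested Fzd4 probe set were not called either, with log2 changes of -0.36, 0.51 and 0.19 under interleukin and -0.26, -0.07 and -0.20 under hydrogen peroxide.

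The co-receptor Lrp6 gave 2 different readings. On 1451022_at its signals were 2514 and 2648 with vehicle, 1212 and 1543 with hydrogen peroxide, and 1167 and 1468 with interleukin, with both treated groups below vehicle and overlapping each other. The log2 change was -0.98 with an SE of 0.17 (2 arrays per group, adjusted p = 0.00347) with interleukin and -0.92 with an SE of 0.17 (2 arrays per group, adjusted p = 0.0133) with hydrogen peroxide. On 1428500_at they were 7713 and 8102 with vehicle, 6721 and 7189 with hydrogen peroxide, and 8963 and 8319 with interleukin, and neither change was called, at 0.13 with adjusted p = 0.422 and -0.19 with adjusted p = 0.299 on the log2 scale. The 2 probe sets therefore disagree. The call under hydrogen peroxide was lost without vehicle array 1 (adjusted p = 0.0888), vehicle array 2 (0.115) or hydrogen peroxide array 1 (0.0948). Lrp5, the other co-receptor, read 1036 and 958 with vehicle, 1477 and 927 with hydrogen peroxide, and 1098 and 1255 with interleukin and was not called. Ror2, a receptor of Wnt5a, read 2896 and 2713 with vehicle, 2242 and 2376 with hydrogen peroxide, and 2407 and 2366 with interleukin on 1423428_at, with a log2 change of -0.23 (adjusted p = 0.235) under interleukin and -0.28 (adjusted p = 0.21) under hydrogen peroxide. Ror1, its relative, had log2 changes of 0.10 and -0.12 on its tested probe set.

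**Figure D3:**
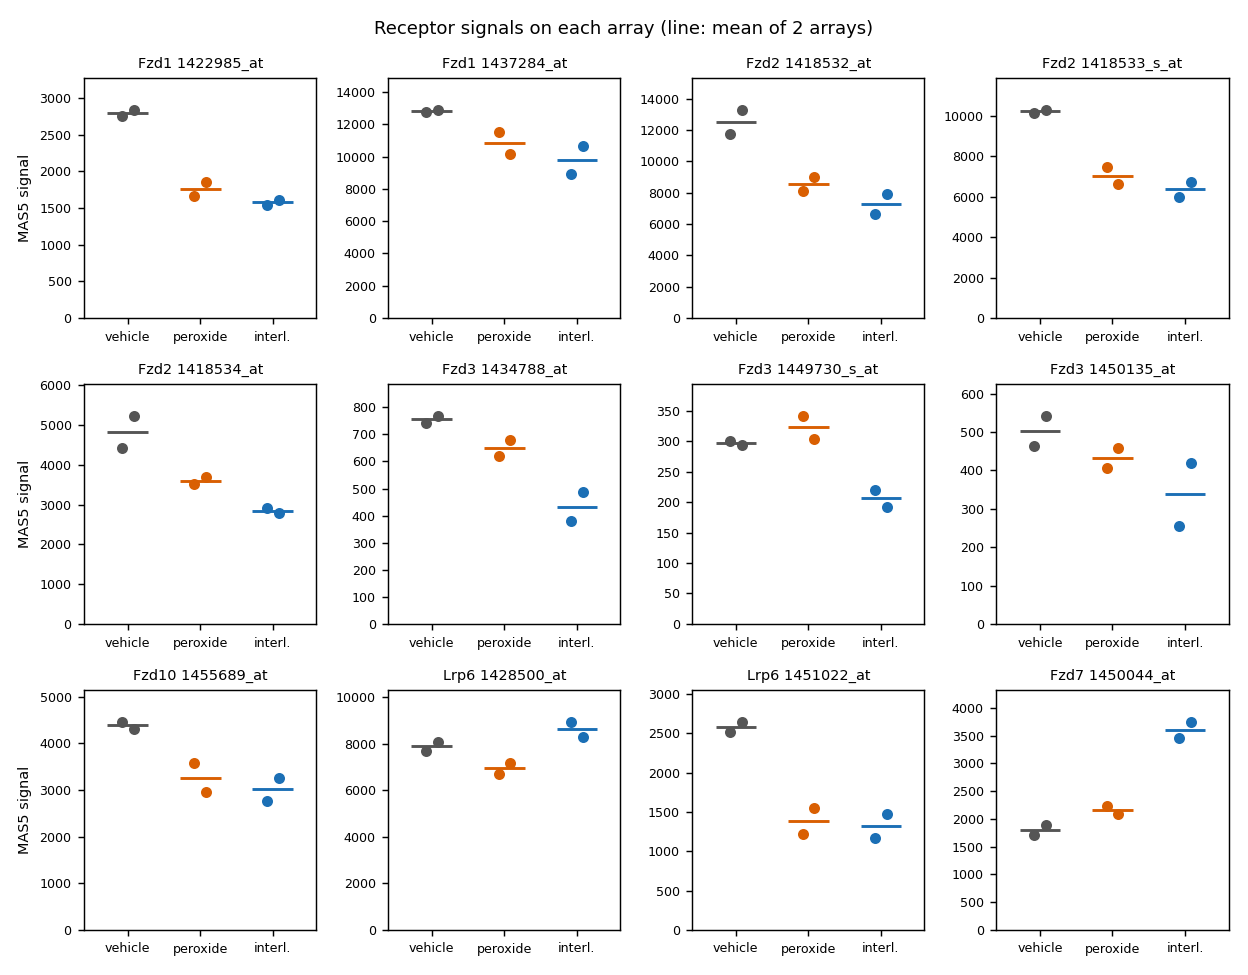
MAS5 signal on each of the 6 arrays (points) and the mean of 2 arrays (line) for the tested probe sets of Fzd1, Fzd2, Fzd3, Fzd10 and Lrp6 and for Fzd7 1450044_at, on linear axes that start at 0. Vehicle arrays are highest for Fzd1, Fzd2, Fzd10 and Lrp6 1451022_at, and interleukin arrays are highest for Fzd7.

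Secreted inhibitors separated the treatments more than the other roles did by count of probe sets. By gene, 5 of 6 tested inhibitors were called between the treatments, against 1 of 12 receptors, 1 of 7 ligands and 1 of 5 intracellular genes. Here a gene counts where any of its probe sets was called. By a different count, that of brightest probe sets, 6.3% of all tested genes were higher and 4.06% lower with interleukin. Without a variance trend Dkk3, Frzb and Sfrp2 lost their calls between the treatments, while Sfrp1 and Sfrp4 kept calls. Of 12 tested inhibitor probe sets, 5 were higher and 2 lower with interleukin against vehicle (58.3%, beside 16.1% of all tested probe sets), from 2 and 1 genes. With hydrogen peroxide 2 were lower (16.7%, beside 5.69%). Sfrp1 holds more of the 12 than any other gene, so these counts and the inhibitor medians above partly repeat 1 gene. Sfrp4, a secreted Frizzled-related protein, was the member with the smallest adjusted p in any comparison. It read 2639.9 and 2391 with vehicle, 1451 and 1239 with hydrogen peroxide, and 3673 and 4453 with interleukin. Interleukin arrays were highest, vehicle arrays lay between, and hydrogen peroxide arrays were lowest, without overlap. The log2 change was 0.69 with an SE of 0.15 (2 arrays per group, adjusted p = 0.0106) with interleukin, -0.91 with an SE of 0.15 (2 arrays per group, adjusted p = 0.00718) with hydrogen peroxide and 1.59 with an SE of 0.15 (2 arrays per group, adjusted p = 8.61e-05) between the treatments. The call with interleukin was lost without vehicle array 2 (adjusted p = 0.0972) or interleukin array 2 (0.061) and without a variance trend (0.056), and that with hydrogen peroxide without vehicle array 1 (0.0801). The difference between the treatments was called without any single array and under the other scalings, filters and variance models tried.

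Sfrp1, which binds Wnt ligands and Frizzled receptors, was measured by 5 probe sets of the same gene. On 1460187_at its signals were 12160.2 and 10046 with vehicle, 8894 and 6091 with hydrogen peroxide, and 17641 and 16885 with interleukin, and on 1428136_at they were 11471 and 12898 with vehicle, 9686 and 6720.3 with hydrogen peroxide, and 17012 and 20292 with interleukin. On 1448395_at they were 13883 and 9592 with vehicle, 10518 and 7424 with hydrogen peroxide, and 18522 and 20399 with interleukin, and on 1438620_x_at 3242 and 2580.3 with vehicle, 2176 and 1933 with hydrogen peroxide, and 3972 and 4816 with interleukin. In these 4 probe sets both interleukin arrays lay above every other array. They rose under interleukin by log2 values of 0.60 to 0.75, with adjusted p from 0.0191 to 0.0243. With hydrogen peroxide their log2 changes were -0.59 to -0.39, with adjusted p from 0.0545 to 0.249, and none was called. Between the treatments they were higher with interleukin by 1.23 with an SE of 0.16 (2 arrays per group, adjusted p = 0.000836), 1.20 with an SE of 0.16 (2 arrays per group, adjusted p = 0.000882), 1.14 with an SE of 0.18 (2 arrays per group, adjusted p = 0.00347) and 1.09 with an SE of 0.15 (2 arrays per group, adjusted p = 0.0014). The fifth, 1416594_at, read 8814 and 4820.2 with vehicle, 5909 and 5480.2 with hydrogen peroxide, and 10415 and 8567 with interleukin, with vehicle arrays far apart, and had a log2 change of 0.54 (adjusted p = 0.133) with interleukin, called without vehicle array 1 (0.00632), and 0.73 (adjusted p = 0.0694) between the treatments, called without vehicle array 1 (0.00848) or 2 (0.00763).

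All 4 Sfrp1 calls against vehicle were lost without a variance trend, with adjusted p of 0.122 for 1460187_at, 0.133 for 1428136_at, 0.121 for 1448395_at and 0.0944 for 1438620_x_at. That of 1428136_at was also lost with no filter on signal (0.0545). Without vehicle array 2 the adjusted p was 0.162 for 1460187_at, 0.0716 for 1428136_at, 0.16 for 1448395_at and 0.205 for 1438620_x_at. Without interleukin array 2 it was 0.0665, 0.137, 0.0988 and 0.122 in the same order. Without interleukin array 1, 1460187_at (0.0962) and 1448395_at (0.0592) were not called, and without vehicle array 1, 1428136_at was not (0.16). With hydrogen peroxide, 1428136_at and 1460187_at were called lower after centring on the 75th percentile (0.0382 and 0.0411) and without hydrogen peroxide array 1 (0.0171 and 0.0157). The difference of Sfrp1 between the treatments was called in these 4 probe sets without any single array, and for 1448395_at it was lost without a variance trend (adjusted p = 0.0775).

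Sfrp2, another member of this family, had signals of 58933 and 59100.4 with vehicle, 42041 and 40255 with hydrogen peroxide, and 51303 and 56577 with interleukin. Hydrogen peroxide arrays lay below all others, with a log2 change of -0.52 with an SE of 0.07 (2 arrays per group, adjusted p = 0.0034), and interleukin arrays lay just below vehicle, at -0.13 (adjusted p = 0.246). Between the treatments Sfrp2 was higher with interleukin by 0.39 with an SE of 0.07 (2 arrays per group, adjusted p = 0.00714) on the log2 scale, which was not called without hydrogen peroxide array 2 (adjusted p = 0.0668). Frzb, also known as Sfrp3, differed the other way between the treatments, although both genes had negative changes against vehicle. Its signals were 4918 and 4558 with vehicle, 4063 and 4279.6 with hydrogen peroxide, and 2642 and 3178 with interleukin on 1448424_at and 7435 and 7481 with vehicle, 6797 and 6484 with hydrogen peroxide, and 4702 and 6042 with interleukin on 1416658_at. Interleukin arrays were lowest in both, with log2 changes of -0.71 with an SE of 0.12 (2 arrays per group, adjusted p = 0.00381) and -0.48 with an SE of 0.12 (2 arrays per group, adjusted p = 0.0247), while hydrogen peroxide gave -0.18 (adjusted p = 0.432) and -0.17 (adjusted p = 0.471).

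Frzb was lower with interleukin than with hydrogen peroxide on 1448424_at, by 0.53 with an SE of 0.12 (2 arrays per group, adjusted p = 0.0265) on the log2 scale, and not at the threshold on 1416658_at (log2 -0.32, adjusted p = 0.151). On 1416658_at the interleukin change was not called without vehicle array 1 (adjusted p = 0.126), vehicle array 2 (0.132) or interleukin array 1 (0.109), and its difference between the treatments was called without interleukin array 2 (0.0324). The treatment difference of 1448424_at was lost without vehicle array 1 (0.0546), vehicle array 2 (0.0539), hydrogen peroxide array 1 (0.0725), array 2 (0.165) or interleukin array 1 (0.0937). Under interleukin Frzb fell where Sfrp1 and Sfrp4 rose.

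Dkk3, a divergent member of the Dickkopf family, read 3508 and 3369.5 with vehicle, 3107 and 2991 with hydrogen peroxide, and 3974 and 4358 with interleukin on 1448669_at. It was higher with interleukin than with hydrogen peroxide by 0.45 with an SE of 0.12 (2 arrays per group, adjusted p = 0.0359) on the log2 scale, and neither change against vehicle was called. The other tested probe set, 1417312_at, gave 0.25 (adjusted p = 0.173). The Dkk3 call was lost without any of 5 arrays, with adjusted p of 0.0747 and 0.0742 without vehicle array 1 and 2, 0.0959 and 0.193 without hydrogen peroxide array 1 and 2, and 0.129 without interleukin array 2. It was also lost with the 4 arrays alone (0.0718). Dkk2, which binds Lrp6, read 347 and 199.7 with vehicle, 725 and 517 with hydrogen peroxide, and 683 and 381 with interleukin. Its log2 changes of 0.95 with an SE of 0.36 (2 arrays per group, adjusted p = 0.1) with interleukin and 1.22 with an SE of 0.36 (2 arrays per group, adjusted p = 0.0755) with hydrogen peroxide were not called, although every treated array lay above both vehicle arrays.

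**Figure D4:**
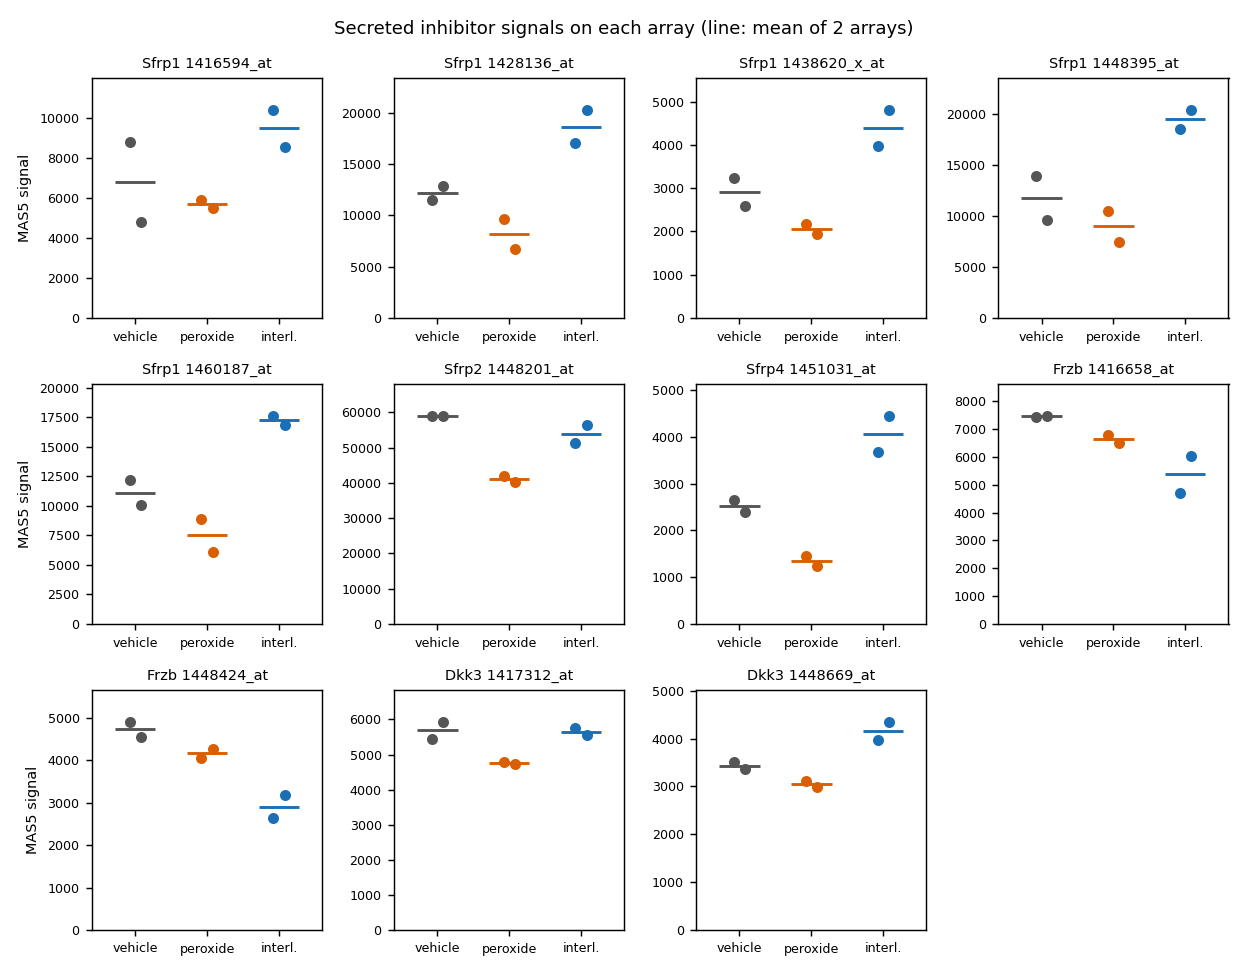
MAS5 signal on each of the 6 arrays (points) and the mean of 2 arrays (line) for the tested probe sets of Sfrp1, Sfrp2, Sfrp4, Frzb and Dkk3, on linear axes that start at 0. For Sfrp4 and 4 of 5 Sfrp1 probe sets both interleukin arrays lie above all others, Sfrp2 is lowest with hydrogen peroxide, and Frzb is lowest with interleukin.

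Of 11 tested intracellular probe sets, 1 was called under interleukin (9.09%, beside 16.1% of all tested probe sets), and it belonged to Ctnnb1, which encodes beta-catenin. On 1430533_a_at its signals were 7592 and 8541 with vehicle, 6429.7 and 6877 with hydrogen peroxide, and 4865 and 4742 with interleukin, with both interleukin arrays lowest and hydrogen peroxide arrays between. The log2 change was -0.75 with an SE of 0.10 (2 arrays per group, adjusted p = 0.00104) with interleukin, -0.28 (adjusted p = 0.152) with hydrogen peroxide and -0.47 with an SE of 0.10 (2 arrays per group, adjusted p = 0.02) between the treatments. The probe set 1420811_a_at read 37439.6 and 41459.6 with vehicle, 36367 and 37403 with hydrogen peroxide, and 35169 and 38017 with interleukin and 1450008_a_at read 11874 and 13305 with vehicle, 14060.3 and 15000.3 with hydrogen peroxide, and 11857 and 11656 with interleukin. Neither was called, with log2 changes of -0.11 (adjusted p = 0.395) and -0.10 (adjusted p = 0.526) with interleukin, so the 3 probe sets of Ctnnb1 disagree. The difference between the treatments was lost on omitting interleukin array 2 (adjusted p = 0.067) or either hydrogen peroxide array (0.0518 and 0.154).

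Axin2, both a scaffold for beta-catenin breakdown and a widely used readout of Wnt signalling, read 332 and 615 with vehicle, 522 and 522 with hydrogen peroxide, and 470.3 and 797 with interleukin on its tested probe set. Its log2 change was 0.44 with an SE of 0.33 (2 arrays per group, adjusted p = 0.414) with interleukin and 0.21 with an SE of 0.33 (2 arrays per group, adjusted p = 0.762) with hydrogen peroxide, and the arrays of 1 group differed by as much as the groups. Axin1, the constant scaffold, read 3344 and 3695 with vehicle, 4376 and 3609 with hydrogen peroxide, and 3545 and 3849 with interleukin on 1426966_at, with log2 changes of 0.07 and 0.18. Tcf7l1, the Tcf member known as a repressor, and Tcf7l2 had log2 changes between -0.24 and 0.42 with interleukin over their 5 tested probe sets, and none was called.

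Other genes of the pathway were read from 4 lists written from general knowledge, with 123 different genes, 119 on the array and 95 tested by their brightest probe set. These lists, too, were chosen with earlier results of these data known. With interleukin 14 rose and 6 fell, with hydrogen peroxide 8 rose and 6 fell, and between the treatments 10 were higher and 4 lower with interleukin. Over all 10892 genes tested this way, 9.78% were higher and 6.61% lower with interleukin, 4.08% and 2.91% with hydrogen peroxide, and 6.3% and 4.06% between the treatments. Without a variance trend 10, 1 and 7 of these genes were called with interleukin, with hydrogen peroxide and between the treatments, against 20, 14 and 14. Not every call lost in that way is listed by gene below. Up to 4 called genes of smallest p are named for each list and comparison.

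Of 16 tested genes of Wnt secretion and the cell surface, 6 rose with interleukin, 3 rose and 2 fell with hydrogen peroxide, and 4 were higher with interleukin in the direct comparison. Rspo1, a secreted enhancer of Wnt signalling that binds Lgr receptors, read 573 and 554 with vehicle, 334 and 402 with hydrogen peroxide, and 1056 and 1265 with interleukin. Its log2 change was 1.04 with an SE of 0.21 (2 arrays per group, adjusted p = 0.00774) with interleukin, and its difference between the treatments was 1.66 with an SE of 0.21 (2 arrays per group, adjusted p = 0.000733). The first of these was not called without interleukin array 2 (adjusted p = 0.0528), vehicle array 2 (0.0614) or vehicle array 1 (0.0525). Draxin, a secreted protein of axon guidance, read 137 and 159 with vehicle, 169.7 and 69.2 with hydrogen peroxide, and 789.9 and 895 with interleukin, with both interleukin arrays far above the rest. Its log2 values were 2.51 (adjusted p = 0.0034) with interleukin and 2.96 (adjusted p = 0.00199) between the treatments. Every vehicle and hydrogen peroxide array of Draxin lay below 193.7, so it passed the filter on signal only through its interleukin arrays. Its calls are therefore not independent of how it came to be tested. Apcdd1, a membrane inhibitor of Wnt signalling that is itself a target and stands in 2 lists, rose with interleukin by 0.61 (adjusted p = 0.00276) on the log2 scale, as did its other 4 tested probe sets. With hydrogen peroxide 2 of the 5 were called higher, 1418383_at (log2 0.71, adjusted p = 0.0226) and 1437604_x_at (log2 0.94, adjusted p = 0.0051). Reck, a membrane-anchored regulator of matrix proteases, rose with interleukin by 0.73 (adjusted p = 0.0108) and with hydrogen peroxide by 0.85 (adjusted p = 0.0132). Without interleukin array 1 (adjusted p = 0.0569), vehicle array 2 (0.0768) or vehicle array 1 (0.0613) the first was lost, and without hydrogen peroxide array 1 (adjusted p = 0.0896), vehicle array 2 (0.103) or vehicle array 1 (0.0848) the other.

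The glypican Gpc4 rose with hydrogen peroxide by 0.67 (adjusted p = 0.00607) on the log2 scale on 1421088_at, and not at the threshold on 1436514_at (log2 0.38, adjusted p = 0.13). On 1421088_at it was also called higher with interleukin (log2 0.40, adjusted p = 0.0265), and the treatments did not differ at the threshold (log2 -0.27, adjusted p = 0.146). The hydrogen peroxide call was lost without hydrogen peroxide array 1 (adjusted p = 0.0514) or vehicle array 1 (0.0771). Ptk7, a co-receptor of planar polarity, rose by 0.81 (adjusted p = 0.0322), lost without hydrogen peroxide array 2 (adjusted p = 0.118), hydrogen peroxide array 1 (0.119), vehicle array 2 (0.104) or vehicle array 1 (0.201). Igfbp4, which binds insulin-like growth factors, was called lower with hydrogen peroxide on 5 of 6 tested probe sets. The log2 changes were -1.10 (adjusted p = 0.000407) on 1421991_a_at, -0.75 (adjusted p = 0.00304) on 1421992_a_at, -0.69 (adjusted p = 0.0233) on 1423757_x_at, -0.42 (adjusted p = 0.0354) on 1437406_x_at and -0.39 (adjusted p = 0.0433) on 1423756_s_at. The last was lost without hydrogen peroxide array 2 (adjusted p = 0.179), hydrogen peroxide array 1 (0.08), vehicle array 2 (0.279) or vehicle array 1 (0.117). On 1423756_s_at it was higher with interleukin than with hydrogen peroxide by 0.53 (adjusted p = 0.00701), lost without hydrogen peroxide array 2 (adjusted p = 0.0667), and its 5 other tested probe sets were called in the same direction, by 0.34 to 0.96. Tpbg, a membrane protein that dampens beta-catenin signalling, was higher with interleukin by 0.59 (adjusted p = 0.00847) in the direct comparison, lost without hydrogen peroxide array 2 (adjusted p = 0.0566). Its probe set 1423310_at was called too (log2 0.66, adjusted p = 0.0119), and its probe set 1423312_at was not called (log2 0.48, adjusted p = 0.125).

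Of 36 tested cytoplasmic and nuclear genes of the beta-catenin branch, 3 rose and 4 fell with interleukin, and 1 rose and 2 fell with hydrogen peroxide. Tle4, a corepressor that works with Tcf proteins, read 1284 and 1134 with vehicle, 556 and 451 with hydrogen peroxide, and 448 and 437 with interleukin. It fell by 1.45 with an SE of 0.20 (2 arrays per group, adjusted p = 0.00106) with interleukin and 1.27 with an SE of 0.20 (2 arrays per group, adjusted p = 0.00685) with hydrogen peroxide on the log2 scale, the latter not called without vehicle array 2 (adjusted p = 0.0578) or vehicle array 1 (0.0905). Another Tle4 probe set, 1425650_at, was not called, at -0.82 with adjusted p = 0.227 with interleukin. Dact1, which binds Dvl proteins, read 668 and 628 with vehicle, 543 and 539.5 with hydrogen peroxide, and 2339 and 1432 with interleukin. It rose with interleukin by 1.50 with an SE of 0.23 (2 arrays per group, adjusted p = 0.00167) on the log2 scale and 1.76 (adjusted p = 0.000865) between the treatments. Csnk1a1, a kinase that primes beta-catenin for breakdown, rose with interleukin on 1 of 4 tested probe sets, by 0.44 (adjusted p = 0.00755), lost without vehicle array 2 (adjusted p = 0.0809). Tax1bp3, a PDZ protein that binds beta-catenin, fell by 0.46 with an SE of 0.11 (2 arrays per group, adjusted p = 0.0198) on the log2 scale, lost without interleukin array 1 (adjusted p = 0.104), vehicle array 2 (0.13) or vehicle array 1 (0.0925).

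Gsk3b, the kinase that marks beta-catenin for breakdown, had 1 of 6 tested probe sets called with hydrogen peroxide, at -0.48 (adjusted p = 0.0297), lost without hydrogen peroxide array 2 (adjusted p = 0.137), hydrogen peroxide array 1 (0.0938), vehicle array 2 (0.184) or vehicle array 1 (0.172). On another, 1437001_at, the change was 0.63 (adjusted p = 0.0641) with hydrogen peroxide and 0.64 (adjusted p = 0.0329) with interleukin, the latter called higher, so its probe sets disagree in sign. The kinase Nlk rose with hydrogen peroxide on 1 of 3 tested probe sets, by 0.53 (adjusted p = 0.0436), lost without hydrogen peroxide array 2 (adjusted p = 0.19), hydrogen peroxide array 1 (0.098), vehicle array 2 (0.165) or vehicle array 1 (0.229). Between the treatments the SUMO protease Senp2 was lower with interleukin on 1 of 4 tested probe sets (log2 -0.54, adjusted p = 0.013), lost on omitting interleukin array 2 (adjusted p = 0.0577) or hydrogen peroxide array 2 (0.115), and the same probe set was called lower with interleukin against vehicle (log2 -0.36, adjusted p = 0.0489). The corepressor Tle2 was higher (log2 0.86, adjusted p = 0.024), lost without interleukin array 2 (adjusted p = 0.127), hydrogen peroxide array 2 (0.0798) or hydrogen peroxide array 1 (0.0901). Tnks, an enzyme that marks Axin for breakdown, was lower (log2 -0.42, adjusted p = 0.045), lost without interleukin array 2 (adjusted p = 0.155), hydrogen peroxide array 2 (0.293), hydrogen peroxide array 1 (0.0602), vehicle array 2 (0.086) or vehicle array 1 (0.086) and under both other scalings. Its probe set 1459910_at was not called in that comparison (log2 -0.81, adjusted p = 0.141) but was called lower with interleukin against vehicle (log2 -1.59, adjusted p = 0.00621), where 1433778_at was not (log2 -0.37, adjusted p = 0.052).

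Of 26 tested genes of planar polarity and the calcium branch, 1 rose with interleukin and 1 was higher in the direct comparison. Daam1, a formin of planar polarity, rose by 0.59 (adjusted p = 0.0356) on the log2 scale, lost without interleukin array 1 (adjusted p = 0.172), vehicle array 2 (0.114) or vehicle array 1 (0.192). Ppp3ca, the catalytic subunit of calcineurin, was higher with interleukin than with hydrogen peroxide by 0.43 (adjusted p = 0.0151), lost without interleukin array 2 (adjusted p = 0.0728) or hydrogen peroxide array 2 (0.138), while 1438478_a_at was called too (log2 0.56, adjusted p = 0.00712) and 1452056_s_at was not (log2 0.38, adjusted p = 0.0752). The latter pair was called higher with interleukin against vehicle, at 0.41 with adjusted p = 0.0206 and 0.42 with adjusted p = 0.036. With hydrogen peroxide limma called 0 of these 26, with 5 at an unadjusted p under 0.05.

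Among 20 tested genes known as Wnt targets, 5 rose and 2 fell with interleukin, 4 rose and 2 fell with hydrogen peroxide, and 3 were higher and 2 lower with interleukin in the direct comparison. Fst, which encodes the activin antagonist follistatin, read 698 and 618 with vehicle, 952 and 649 with hydrogen peroxide, and 3124 and 2465 with interleukin. On the log2 scale it rose by 2.08 with an SE of 0.21 (2 arrays per group, adjusted p = 0.000129) with interleukin and differed by 0.26 (adjusted p = 0.516) with hydrogen peroxide and by 1.82 (adjusted p = 0.000404) between them, and 1421365_at was called in the same comparisons, at 1.50 with adjusted p = 0.000944 and 1.10 with adjusted p = 0.00848. The matricellular genes Ccn5 and Ccn4 rose with interleukin by 0.80 (adjusted p = 0.000304) and 0.94 (adjusted p = 0.000756). Ccn4 was also called higher with hydrogen peroxide on both probe sets, at 0.71 with adjusted p = 0.011 and 0.82 with adjusted p = 0.00893, while Ccn5 gave 0.02 (adjusted p = 0.925). For Ccn5 and Ccn4 the difference between the treatments was 0.78 (adjusted p = 0.000469) and 0.23 (adjusted p = 0.304). Cd44, a hyaluronan receptor, rose with both treatments on 1434376_at, by 0.56 (adjusted p = 0.00207) and 0.68 (adjusted p = 0.00266), as it did on 1423760_at, while 1452483_a_at gave -0.15 (adjusted p = 0.539) and 0.47 (adjusted p = 0.0852) and was lower with interleukin in the direct comparison (log2 -0.62, adjusted p = 0.0242). Without a variance trend both calls on 1434376_at were lost in limma (adjusted p = 0.0504 with interleukin and 0.0914 with hydrogen peroxide). Ccnd1, which encodes cyclin D1 of the cell cycle, read 488 and 569.9 with vehicle, 1918 and 1997 with hydrogen peroxide, and 689.5 and 599 with interleukin. Its log2 change was 1.89 with an SE of 0.18 (2 arrays per group, adjusted p = 0.000569) with hydrogen peroxide and 0.28 (adjusted p = 0.318) with interleukin, and it was lower with interleukin in the direct comparison (log2 -1.61, adjusted p = 0.00031). Its other tested probe sets, 1417419_at and 1448698_at, were called in the same directions for hydrogen peroxide against vehicle and in the direct comparison, and 1448698_at was also called higher with interleukin against vehicle (log2 0.73, adjusted p = 0.0357).

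Vcan, the matrix proteoglycan versican, fell with hydrogen peroxide by 1.04 with an SE of 0.14 (2 arrays per group, adjusted p = 0.00304) on the log2 scale and was higher with interleukin in the direct comparison (log2 0.91, adjusted p = 0.00263). Its probe set 1421694_a_at was called in both, at -0.93 with adjusted p = 0.0122 and 0.71 with adjusted p = 0.0261, while its probe set 1427257_at was called in neither, at -0.82 with adjusted p = 0.0807 and 0.52 with adjusted p = 0.234. The first hydrogen peroxide call, on 1427256_at, was lost in limma without a variance trend (adjusted p = 0.074). Id2, an inhibitor of helix-loop-helix factors, fell with both treatments. On 1435176_a_at it fell by 0.79 with an SE of 0.13 (2 arrays per group, adjusted p = 0.00893) with hydrogen peroxide, lost without hydrogen peroxide array 1 (adjusted p = 0.0527) or vehicle array 1 (0.105), and its log2 change with interleukin was -0.81 (adjusted p = 0.00276). The difference between the treatments was -0.01 (adjusted p = 0.966), and 1422537_a_at was called lower in both comparisons with vehicle, at -1.76 with adjusted p = 0.0223 with hydrogen peroxide and -1.47 with adjusted p = 0.0218 with interleukin.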

How the data were processed

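Each probe set has an intensity, deposited as a MAS5 signal on a linear scale that the authors made, per the submitters' processing notes, with the version not given in the sources used here. Detection calls were not used. The signals were log2 transformed without a pseudocount, 64 controls were left out, and 22519 of 45037 probe sets were tested, those at or above the median of mean log2 signal. Gene symbols were those of the array's annotation, brought up to date by gene identifier against RefSeq (34741 of 34945 probe sets with 1 symbol matched, 932 listed several and 9160 none). The model was limma 3.58.1 (R 4.3.3) with a mean per group over the 6 arrays, moderated standard errors with a variance trend, and Benjamini-Hochberg adjustment over tested probe sets at 0.05. The procedure was tested on simulated data. The p-values rest on the spread between the 2 cultures of a group, pooled over all groups. That spread was moderated toward the trend over probe sets of similar signal, so much of it is borrowed from other probe sets. The members and lists were chosen with earlier results of these data known. Every called member was named with its signals, and up to 4 called genes of smallest p per pathway list and comparison. Alternatives were 2 other scalings, a pseudocount of 32, a stricter or no filter on signal, no variance trend, fits on the 4 arrays compared, a block for replicate number, omission of single arrays, and a fold of at least 2.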

Additional observations from a re-analysis of the deposited data

How the results depend on the processing

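The 37 calls of single member probe sets gave 518 values under the alternatives, of which 436 kept direction and call, 82 kept direction without the call, and 0 reversed. Of the 82, 56 left out an array. For 37 results of other pathway genes the numbers were 516, 430, 86 and 0. The number of members called with interleukin against vehicle was 20, against 12 without a variance trend, 3 at a fold of at least 2, and 10 to 20 without each array in turn. Under hydrogen peroxide it was 6, against 0 without a trend in limma (17 at an unadjusted p under 0.05), 0 at a fold of at least 2, and 1 to 7 without an array. Between the treatments it was 11, against 6 without a trend, 5 at a fold of at least 2, and 6 to 11 without an array. Over all probe sets, counts without a trend were 1783 of 3627, 57 of 1282 and 716 of 1987, and at a fold of at least 2 they were 1040, 291 and 579; with no filter hydrogen peroxide gave 762. The lowest counts without an array were 1554, 235 and 839. For other pathway genes they were 10 of 20, 3 of 14 and 7 of 14, and without a trend 10, 1 and 7. With the replicate block 21, 8 and 11 members were called, with Dkk2 added under both treatments (adjusted p = 0.0344 and 0.0294) and Dkk3 lost between them (0.0523). Deviations of same-numbered arrays from their group means were weakly correlated. The correlations were 0.107 for vehicle with hydrogen peroxide and 0.0535 for vehicle with interleukin. For hydrogen peroxide with interleukin the correlation was -0.129, in opposite directions. With 2 arrays per group this does not settle whether same-numbered arrays share more than a number. A crossed block was fitted to the 4 interleukin and hydrogen peroxide arrays alone, added after seeing the data. It pairs each interleukin array with the hydrogen peroxide array of the other number. It called 16 members and 3288 probe sets, against 10 and 1518 on the same 4 arrays with no block. The labels do not say what arrays of different number may share, and the reason for the higher counts was not tested. Where an array was omitted, the lone array of its group was assumed to vary like the other groups.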

Other observations

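Some of the 45 member probe sets below the filter on signal had arrays that separated by group. They were picked after their values had been seen. With no filter, limma called 0 of the 45 in each comparison, with 4 at an unadjusted p under 0.05 in each. Wif1, which binds Wnt ligands, read 261 and 173 with vehicle, 84 and 68.1 with hydrogen peroxide, and 68.4 and 51.6 with interleukin, so that both treated groups lay below vehicle. Its log2 change was -1.84 with interleukin (adjusted p = 0.134) and -1.49 with hydrogen peroxide (adjusted p = 0.312). Dkk1 had a larger log2 change with interleukin on 1458232_at, of 4.76 (adjusted p = 0.0913). Its other probe set, 1420360_at, gave -0.05 (adjusted p = 0.993), so the Dkk1 probe sets disagree. A Fzd4 probe set, 1449416_at, read 85.7 and 104 with vehicle, 9.9 and 13.3 with hydrogen peroxide, and 83.2 and 107 with interleukin, low with hydrogen peroxide alone (log2 -3.04, adjusted p = 0.119). The tested Fzd4 probe set 1434756_at was also lowest with hydrogen peroxide, at 601 and 725 with vehicle, 447 and 440.3 with hydrogen peroxide, and 694 and 739.7 with interleukin. Lef1, a DNA-binding partner of beta-catenin, read 187 and 197 with vehicle, 78.2 and 96.1 with hydrogen peroxide, and 196 and 199.9 with interleukin on 1454734_at, lowest with hydrogen peroxide (log2 -1.15, adjusted p = 0.311). Its other probe set, 1421299_a_at, read 7.5 and 45.8 with vehicle, 115 and 76.7 with hydrogen peroxide, and 163 and 99.2 with interleukin. It was lowest with vehicle, so the 2 Lef1 probe sets disagree. The log2 changes of 1421299_a_at were 2.78 (adjusted p = 0.147) with interleukin and 2.34 (adjusted p = 0.308) with hydrogen peroxide.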
